A study of Mus musculus with 3 samples.

Results

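The 10 genes described here encode the inflammasome sensors Nlrp3, Nlrp1b, Nlrc4, Naip2, Naip5 and Mefv, their adaptor Pycard, the inflammatory caspases Casp1 and Casp4, and the pore-forming Gsdmd. They were chosen by symbol, and all 10 were found among the 55536 gene identifiers of the deposited tables, of which 22028 are protein-coding. RNA of the chromatin fraction, which holds transcripts still being made or not yet released from their gene, was sequenced after depletion of ribosomal RNA. The cells were bone-marrow-derived macrophages of C57BL/6J mice. All 3 libraries belong to 1 condition: cells received Lipid A at 100 ng/ml for 12 h, were kept without it for 12 h, and then received the same concentration again for 10 min. Lipid A, the membrane anchor of bacterial lipopolysaccharide, is the ligand of the receptor TLR4. The labels list no modified allele and give age and sex as not collected. They name the libraries biological replicates 1 to 3, with a separate biosample each and a shared donor identifier, so the spread between them may not be that between animals. Cells without Lipid A, or with a single dose, were not analysed here, so no change caused by Lipid A can be read from these values.

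An inflammasome is a protein complex in the cytosol that turns the detection of a microbe or of damage into inflammatory cell death. A sensor protein assembles with the adaptor ASC, the product of Pycard, which recruits and activates caspase-1. Caspase-1 matures the cytokines IL-1β and IL-18 and cuts gasdermin D, whose freed part forms pores in the plasma membrane. In mice caspase-11, the product of Casp4, binds cytosolic lipopolysaccharide itself and cuts gasdermin D without a separate sensor. In macrophages Nlrp3 is known as a gene that needs a priming signal such as TLR4 ligation, and several other members are known to respond to interferon.

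Libraries held 13538605, 19949204 and 18224466 expected counts on genes in replicates 1, 2 and 3. RNA input was 1 µg, 250 ng and 500 ng in the same order, so input and library cannot be told apart. Entries outside genes held 1.39% of counts in replicate 1 and at most 0.288% in the others. All 7 macrophage markers of a fixed list were detected, meaning a TPM (a share of all transcripts in the library, corrected for transcript length) of at least 1 in every library, and their summed level was 696 to 955 TPM. Of 47 markers of 10 other cell types, 4 were detected in the gene tables. These were the endothelial genes Vwf, Kdr and Pecam1 and the dendritic cell gene Zbtb46. A second deposited set of tables, here called read-based, gave higher means for some of the others. Among these were the T cell gene Cd3d at 13.7 TPM and the NK cell gene Klre1 at 3.28 TPM, while most stayed below 1 TPM.

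All 10 members were detected, beside 45.6% of protein-coding genes. Their mean levels spanned from 7.80 TPM for Mefv to 200 TPM for Gsdmd, and the expected counts behind them from 204 for Mefv to 7023 for Nlrp1b, both in replicate 3. The median member lay at 5.27 ± 0.20 on the log2(TPM + 0.1) scale (SD, n = 3), against 3.60 ± 0.11 for the median of the detected protein-coding genes. The members were picked with earlier results known, so the gap between these medians is a description. In such bulk samples fewer cells expressing a gene and less RNA per cell cannot be told apart.

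**Figure D1:**
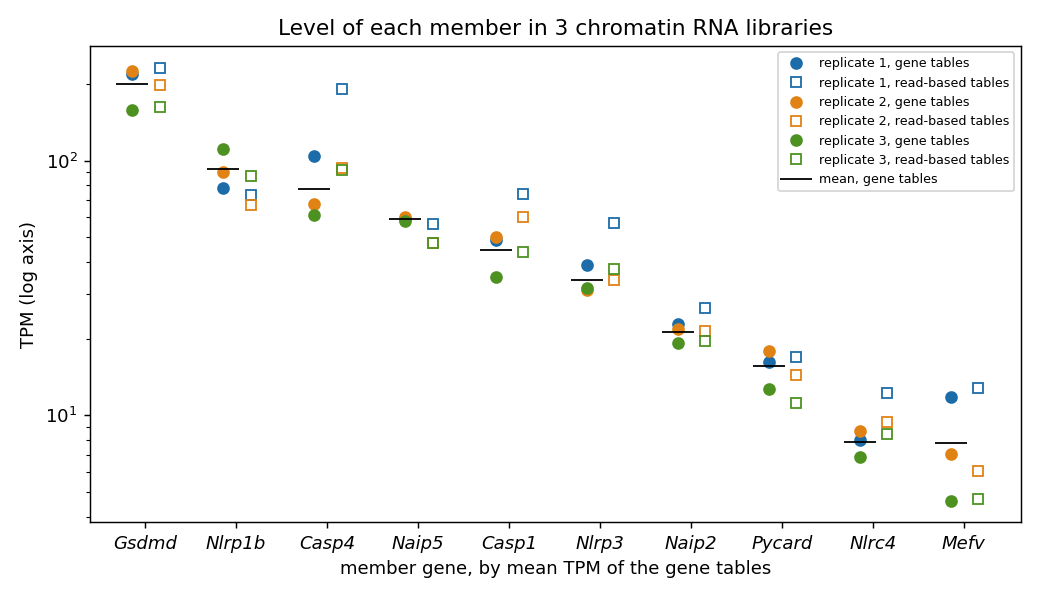
TPM of the 10 members on a log axis, with a filled circle for each library in the gene tables, an open square for the same library in the read-based tables and a bar for the mean of the gene tables. Gsdmd stands highest, at 158 to 224 TPM, and Mefv shows the widest spread, from 4.62 to 11.8 TPM.

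A large part of the Gsdmd and Casp4 signal was assigned to transcripts that GENCODE annotates as retaining an intron. The sequences of 4 such stretches are shown because these transcripts carried most of the TPM of both genes. Each is read 5′ to 3′ on the plus strand of mm10 (GRCm38) from the GENCODE M21 transcript, with intron bases of the main coding transcript in capitals and up to 20 flanking exon bases in lower case. The Casp4 lines show 110 intron bases of a longer stretch.
Gsdmd-206, chr15:75866671-75866809: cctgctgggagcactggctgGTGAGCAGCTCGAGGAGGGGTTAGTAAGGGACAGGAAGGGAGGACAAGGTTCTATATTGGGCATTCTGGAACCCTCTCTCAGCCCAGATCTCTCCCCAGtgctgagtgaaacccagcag
Gsdmd-204, chr15:75866452-75866542: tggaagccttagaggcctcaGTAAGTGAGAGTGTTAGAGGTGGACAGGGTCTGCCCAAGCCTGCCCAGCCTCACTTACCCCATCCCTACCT
Casp4-207, chr9:5323515-5323644: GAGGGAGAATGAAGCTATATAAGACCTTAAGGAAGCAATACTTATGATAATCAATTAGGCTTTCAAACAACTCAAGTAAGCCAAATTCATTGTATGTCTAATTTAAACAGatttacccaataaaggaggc
Casp4-205, chr9:5321493-5321622: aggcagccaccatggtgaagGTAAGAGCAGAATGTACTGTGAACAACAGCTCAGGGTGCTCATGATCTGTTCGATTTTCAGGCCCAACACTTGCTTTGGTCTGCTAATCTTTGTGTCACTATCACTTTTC
Gsdmd-206 keeps the whole of intron 9, 99 bases that begin with GT and end with AG. Gsdmd-204 ends within intron 8, after 71 of its 74 bases, and begins within intron 3. Casp4-207 begins within intron 3 and holds 277 of its 707 bases. Casp4-205 ends within intron 2, after 228 of 1307 bases. All of these introns interrupt the coding sequence.

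Among the 6 sensors described here, Nlrp1b had the highest level by whole-gene TPM. Its product is held in check by Dpp9. The gene (ENSMUSG00000070390.12) spans chr11:71153102-71230733 on the minus strand. It was at 78.0, 90.0 and 111 TPM in replicates 1, 2 and 3, with a mean of 92.9 ± 16.6 (SD, n = 3). It was the only member lowest in replicate 1. By coding transcripts alone it was at 44.0, 45.8 and 56.6 TPM, below Naip5 in every library.

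Nlrp3, the sensor of ion flux and membrane disturbance, is ENSMUSG00000032691.14 at chr11:59541568-59566956 on the plus strand. It reached 38.8, 31.1 and 31.6 TPM, a mean of 33.8 ± 4.29 (SD, n = 3). Nlrp1b exceeded Nlrp3 in each library, by 2.01, 2.90 and 3.50 times. The mean log2 difference was 1.45 ± 0.41, with p = 0.25 in a sign-flip test (exact, two-sided), below which a test on 3 libraries cannot go. Coding transcripts alone left Nlrp1b 1.44-fold higher. In the read-based tables coding transcripts placed it lower than Nlrp3, at 0.70 times, so the order of these 2 sensors depends on which transcripts are counted.

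The NAIP proteins bind bacterial ligands and pass the signal to Nlrc4. Naip5, the flagellin receptor (ENSMUSG00000071203.6, chr13:100211739-100246323, minus strand), was the most even member. It lay at 58.9, 60.1 and 57.9 TPM, a mean of 59.0 ± 1.08 (SD, n = 3) and a coefficient of variation of 1.83%. The read-based tables gave a wider spread, with 56.6, 47.4 and 47.6 TPM and a mean of 50.5 ± 5.24 (SD, n = 3). Naip2, the receptor of the inner rod protein of type III secretion systems (ENSMUSG00000078945.10, chr13:100144063-100202092, minus strand), was at 22.8, 21.8 and 19.2 TPM. Its mean was 21.3 ± 1.81 (SD, n = 3). Naip5 was 2.59, 2.76 and 3.01 times higher than Naip2 in replicates 1, 2 and 3, and the read-based tables gave a ratio of 2.26. The sign-flip test again gave its smallest value (exact, two-sided, p = 0.25).

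Both genes lie on the same strand with 9646 bases between them and belong to a family of similar copies. Of all 50-base stretches of Naip5 transcripts, 36.9% also occur in transcripts of other genes, mainly Naip6 and Naip3. For Naip2 the share was 19.1%, mainly with Naip1 and Naip3. Stretches of 100 bases were shared for 16.2% of Naip5 and 4.44% of Naip2. Their levels therefore depend on how reads were divided between copies, and are uncertain to that extent. Naip6 itself was at 75.1, 69.3 and 63.7 TPM, and Naip1 stayed at or below 0.39 TPM in the gene tables. The read-based means were 57.8 TPM for Naip6 and 1.44 TPM for Naip1.

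Nlrc4, the partner of both NAIP proteins (ENSMUSG00000039193.9, chr17:74425438-74459142, minus strand), was low by comparison. It measured 7.96, 8.65 and 6.86 TPM, a mean of 7.82 ± 0.90 (SD, n = 3). Nlrp3 exceeded it by 4.28-fold, with a ratio of at least 3.59 in every library (exact two-sided sign-flip test, p = 0.25). The read-based tables gave 4.18-fold, and coding transcripts alone gave 8.03-fold, with ratios of 8.59, 6.64 and 9.67. In the read-based tables coding transcripts gave 4.57-fold, with ratios of 5.06, 3.95 and 4.89. The size of the coding gap therefore depends on the pipeline.

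Mefv encodes pyrin, which responds to certain bacterial toxins (ENSMUSG00000022534.14, chr16:3707218-3718097, minus strand). It was at 11.8, 7.02 and 4.62 TPM, a mean of 7.80 ± 3.63 (SD, n = 3). Replicate 1 was thus the highest and replicate 3 the lowest. Nlrc4 and Mefv had similar means and overlapping ranges, with Mefv higher in replicate 1 only (exact two-sided sign-flip test, p = 0.75).

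The adaptor gene Pycard (ENSMUSG00000030793.4, chr7:127989708-127993867, minus strand) was at 16.2, 17.9 and 12.6 TPM, a mean of 15.6 ± 2.68 (SD, n = 3). It therefore lay below Nlrp3 in every library, and the fold between them was 2.18 (exact two-sided sign-flip test, p = 0.25). A gene model on the other strand, Gm45205, shares 485 exon bases with Pycard and held between 22.0 and 34.5 expected counts, against 738 to 1076 for Pycard. The use of strand in counting is not given in the sources used here, so reads of this pair may be mixed.

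The caspase genes Casp1 and Casp4 are neighbours on the plus strand of chromosome 9, with 1562 bases between them. Casp1 (ENSMUSG00000025888.5, chr9:5298517-5307265) has 1 annotated transcript and lay at 48.9, 50.1 and 35.0 TPM, a mean of 44.7 ± 8.38 (SD, n = 3). Casp4 (ENSMUSG00000033538.13, chr9:5308828-5336783) lay at 104, 67.7 and 61.2 TPM, a mean of 77.6 ± 22.9 (SD, n = 3). Replicate 1 stood above the other libraries for Casp4, whereas replicate 3 was the low one for Casp1.

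Taken as whole genes, Casp4 exceeded Casp1 by 2.12, 1.35 and 1.75 times, a mean log2 difference of 0.77 ± 0.33. Coding transcripts alone turned this order round in every library, with Casp4 at 0.44, 0.28 and 0.36 times Casp1 and a log2 difference of -1.48 ± 0.32. The read-based coding values also put Casp4 below Casp1, by a log2 difference of -0.82 ± 0.68. Each of these comparisons gave p = 0.25 in the exact two-sided sign-flip test. The read-based tables held 125 TPM for Casp4, 1.62 times the gene tables, the widest such gap among the members.

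Gsdmd (ENSMUSG00000022575.5, chr15:75862327-75867408, plus strand) encodes the executioner of pyroptosis. It was at 218, 224 and 158 TPM, a mean of 200 ± 36.7 (SD, n = 3), and ranked 184 among protein-coding genes. Its lowest library, replicate 3, exceeded every library of every other member in the gene tables. In the read-based tables it did not, with 162 TPM for Gsdmd in replicate 3 and 191 TPM for Casp4 in replicate 1, and the fold of Gsdmd over Casp4 was 2.62 in the former and 1.65 in the latter. The gap to Nlrp1b, the next gene in order, was 2.80, 2.49 and 1.43 times (exact two-sided sign-flip test, p = 0.25). With coding transcripts alone Gsdmd was at 63.1, 66.3 and 57.9 TPM, 1.29-fold above Nlrp1b. Naip5 was then next in order, at 58.9, 60.1 and 57.9 TPM, and the ranges of Gsdmd and Naip5 overlapped. In the read-based tables coding transcripts put Gsdmd 2.56-fold above Nlrp1b. Casp1 rather than Naip5 was next there, with a mean of 59.4 against 74.9 TPM for Gsdmd.

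In the order of levels, 7 of 9 neighbouring pairs kept their order in all 3 libraries. Ranges over libraries overlapped for 3 pairs, namely Nlrp1b and Casp4, Casp1 and Nlrp3, and Nlrc4 and Mefv. The first and the last of these changed order between libraries, so their relative position is not resolved by these data. With 3 libraries the sign-flip test cannot fall below 0.25 for any pair.

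Gsdmd and Casp4 were the only members with annotated retained-intron transcripts, with 3 each. For Gsdmd these held 71.1%, 70.4% and 63.3% of the gene's TPM, a mean of 68.3% ± 4.30 (SD, n = 3). For Casp4 the share was 68.1%, 69.1% and 69.6%, a mean of 68.9% ± 0.75 (SD, n = 3). Both stood above the median of 45.4% over 6342 detected genes with such a transcript, of which 84.9% had a lower share than Gsdmd and 85.4% a lower share than Casp4. The read-based tables gave 61.8% for Gsdmd and 66.8% for Casp4. Their median was 44.3%, and 76.2% and 82.5% of genes had a lower share than Gsdmd and Casp4.

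TPM weighs short transcripts upward, and the retained-intron transcripts of both genes are mostly shorter than the coding one. In expected counts, which are not divided by length, they held 42.9% ± 6.73 (SD, n = 3) for Gsdmd and 50.1% ± 1.01 (SD, n = 3) for Casp4. By mean TPM of the gene-table pipeline Gsdmd-204, the second sequence printed above, came first, at 78.6, 75.2 and 47.6 TPM. The coding Gsdmd-201 was at 54.8, 60.6 and 56.2 TPM, above Gsdmd-204 in replicate 3. It came first in the read-based tables, with a mean of 67.3 against 65.6 TPM, and in expected counts, with 1387 against 703. Gsdmd-206, which keeps all of intron 9, was at 51.1, 38.6 and 29.6 TPM, lowest in replicate 3 as Gsdmd-204 was. Gsdmd-201 was lowest in replicate 1 in this pipeline and in replicate 3 in the read-based tables, at 77.9, 63.3 and 60.6 TPM.

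For Casp4 the transcript of highest mean TPM was Casp4-207, at 36.9, 19.8 and 18.8 TPM. The coding Casp4-201 was at 21.7, 14.2 and 12.7 TPM, so both were highest in replicate 1. Casp4-205 had 15.7 TPM on average but rested on 34.2 expected counts per library, since it is 365 bases long. The order of these transcripts was not stable: the read-based tables put Casp4-205 first, with a mean of 33.7 against 30.1 TPM for Casp4-207, and in expected counts Casp4-201 came first, with 296 against 198 for Casp4-207. The short coding transcript Casp4-206 was listed at 0 in the gene-table pipeline and at 36.5, 5.06 and 10.9 TPM in the read-based one.

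**Figure D2:**
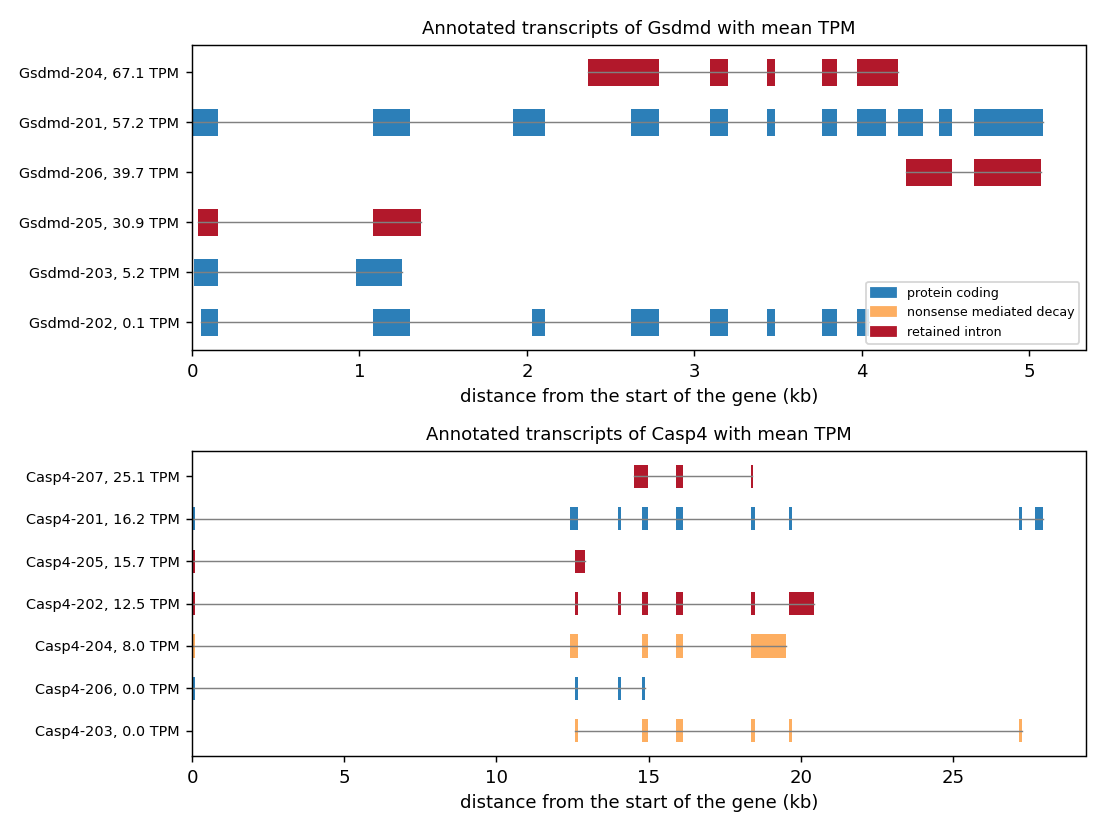
Annotated transcripts of Gsdmd and Casp4, drawn to scale as exon boxes by distance in kb from the start of the gene, coloured by annotated class and ordered by mean TPM over 3 libraries. Gsdmd-204 at 67.1 TPM and Casp4-207 at 25.1 TPM come first in these gene-table means, though not in the read-based tables, and each covers only part of its gene.

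Transcripts annotated as targets of nonsense-mediated decay, the pathway that removes mRNA with a premature stop, made up a large share of Nlrp1b. Its leading transcript, Nlrp1b-205, belongs to this class and was at 34.0, 44.2 and 54.2 TPM, which was 43.6%, 49.1% and 48.9% of the gene. The read-based tables gave 61.4%. The median over 3171 detected genes with such a transcript was 5.0% in the gene-table pipeline and 9.64% in the read-based tables. The 4 coding transcripts were divided differently between libraries: Nlrp1b-202 was listed at 0 in replicate 1 and at 11.7 and 15.8 TPM in the others, while Nlrp1b-204 was at 17.2, 4.48 and 6.73 TPM. In the read-based tables both stayed at or below 4.40 TPM, so these single isoforms are not settled by the data.

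Nlrc4 showed a decay-class share of 47.2% in the gene-table pipeline but 8.56% in the read-based tables. The 2 pipelines also disagreed on the leading transcript of Naip2. It was Naip2-201 at 15.5 ± 0.49 TPM (SD, n = 3) in the gene-table pipeline. In the read-based tables it was Naip2-202 at 15.7 ± 1.82 TPM (SD, n = 3). For Nlrp3 the transcript of highest mean was the coding Nlrp3-202, at 16.7, 16.7 and 18.3 TPM. Nlrp3-201, also coding, was at 17.7, 14.4 and 13.4 TPM, higher than Nlrp3-202 in replicate 1 and lower in the others. In the read-based tables the means were 19.2 TPM for Nlrp3-202, 15.3 for Nlrp3-203 and 8.21 for Nlrp3-201. Read-based gene levels were 10.0, 22.4 and 42.7 TPM for Nlrc4, Naip2 and Nlrp3. Mefv was led by the coding Mefv-201, at 7.43, 4.0 and 2.66 TPM. Casp1-201 and Naip5-201 are the only annotated transcripts of their genes, so their share was fixed by the annotation. Pycard-201 carried all of the TPM of Pycard, which has 2 annotated transcripts.

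**Figure D3:**
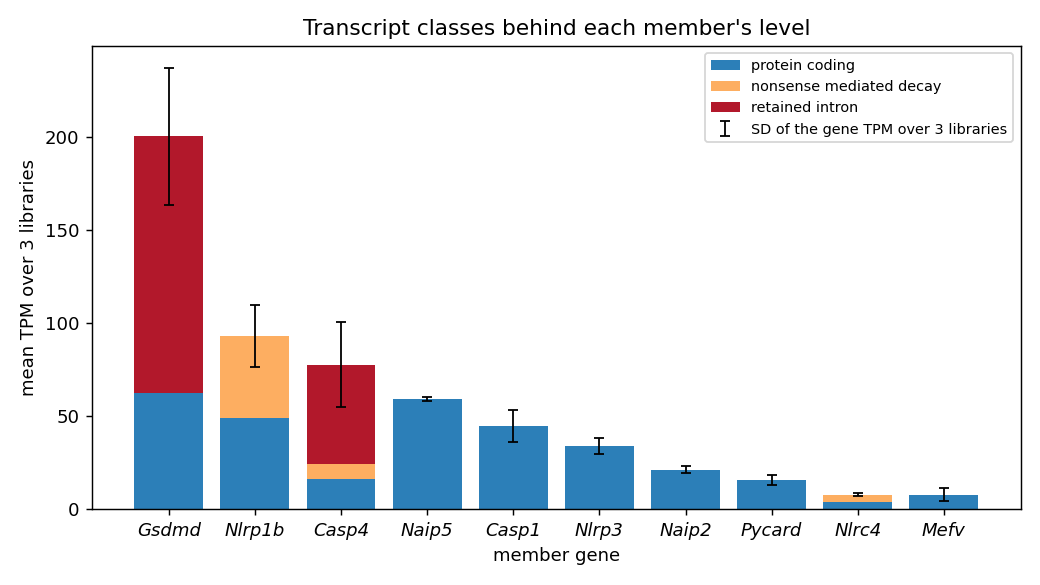
Mean TPM of each member over 3 libraries, stacked by annotated transcript class, with bars for the SD of the gene total. Retained-intron transcripts exceed coding ones in Gsdmd and Casp4, and decay-class transcripts form close to the same height as coding ones in Nlrp1b.

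The question left by a single condition is which genes varied between libraries beyond the spread usual for their level. Mefv was the only member that did. Its scaled counts (counts per library size, with TMM scaling in edgeR) were 29.8, 16.2 and 11.8, so replicate 1 was 2.54 times replicate 3. The edgeR goodness-of-fit test with Benjamini-Hochberg adjustment gave an adjusted p of 0.022, and called 166 of 14789 genes, or 1.12%. With 1 member called of 10, the count is too small to set against that share. The call was lost without a filter on low counts (edgeR adjusted p = 0.060) and without any one of the 3 libraries, with adjusted p of 1.00, 0.081 and 0.61 without replicates 1, 2 and 3.

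Casp4 came next, at 83.8, 49.1 and 47.1 scaled counts, a ratio of 1.78, and did not pass (edgeR goodness of fit, adjusted p = 0.40). For the other 8 members the ratio of the highest to the lowest library ran from 1.06 for Naip5 to 1.41 for Casp1, with adjusted p of 1.00 in the same edgeR test. The test does not show that these genes did not vary. The median SD of log2 scaled counts was 0.18 over the members and 0.18 over the protein-coding genes tested.

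Replicate 1 was the highest library for 7 members, namely Gsdmd, Casp4, Casp1, Nlrp3, Naip2, Nlrc4 and Mefv, beside 38.1% of the genes tested. By TPM in place of scaled counts 4 were highest there. DESeq2 size factors gave 8, and scaled counts of the read-based tables gave 9. The 38.1% was taken for the TMM-scaled counts of the gene tables only. Replicate 3 was the lowest for 7 members, namely Gsdmd, Casp4, Casp1, Naip2, Pycard, Nlrc4 and Mefv, beside 31.7% of the genes tested. Since members share their libraries, these counts are no independent repeats.

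**Figure D4:**
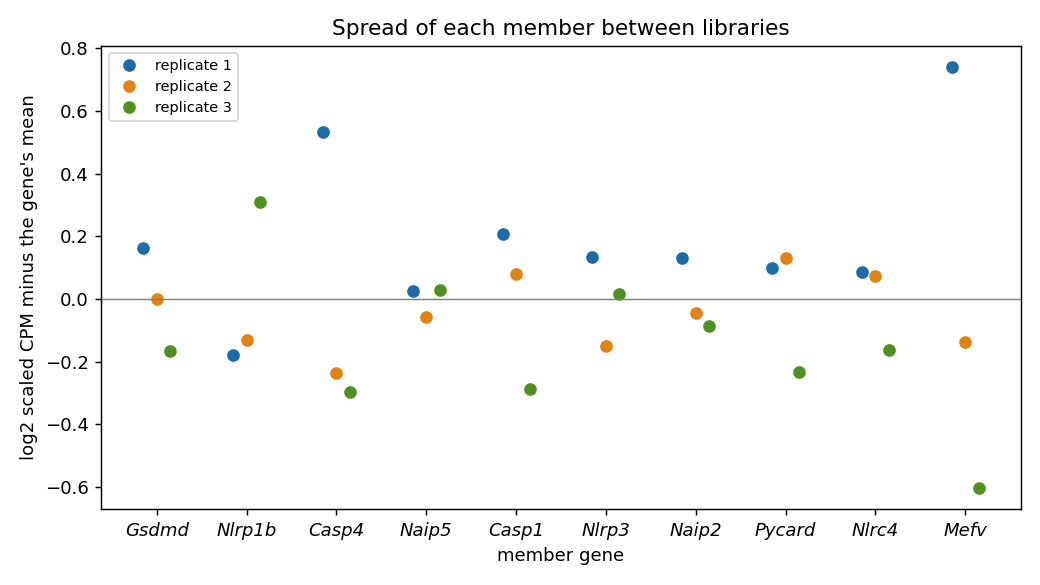
Log2 scaled counts (CPM) of each member in each library, minus the gene's mean over the 3 libraries. Mefv and Casp4 stand highest in replicate 1, Nlrp1b stands highest in replicate 3, and the points of Naip5 lie together.

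Neutrophils are a known source of Mefv RNA. In the gene tables none of 8 neutrophil markers was detected, and their summed level was 0.58 to 0.72 TPM. S100a8, S100a9, Ly6g, Elane and Retnlg were listed there at 0 in every library. Read-based means of the neutrophil markers ran from 0 for S100a9 and Elane to 1.90 TPM for Mpo. In the endothelial list Kdr, Pecam1 and Cdh5 were, like Mefv, highest in replicate 1 by TPM. Pecam1 was at 1.87, 1.84 and 1.40 TPM. Kdr was at 10.3, 2.79 and 4.04 TPM and was called (edgeR goodness of fit, adjusted p = 1e-06). The call on Kdr was lost without replicate 1 or 2 (same test, adjusted p = 0.59 and 0.055). It was kept without replicate 3 (same test, adjusted p = 1.2e-05). Vwf, the most abundant gene of that list, was instead highest in replicate 3, at 26.5, 21.7 and 36.5 TPM. The whole list of 4 summed to between 26.5 and 42.0 TPM, also highest in replicate 3, and Cdh5 stayed at or below 0.14 TPM. The part of such cells in the Mefv result was not tested, nor was that of RNA input.

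Other genes of the pathway were taken from 8 fixed lists. Of 74 such genes 58 were detected, beside 45.6% of protein-coding genes. Of the 60 that could be tested 2 varied beyond the trend, too few to set against the 1.12% of all genes tested. Both encode guanylate-binding proteins, GTPases that attack intracellular bacteria and aid caspase-11 and other sensors. Gbp2 was at 76.8, 40.1 and 26.3 TPM (edgeR goodness of fit, adjusted p = 0.00034). Gbp5 was at 116, 56.9 and 42.6 TPM (same test, adjusted p = 0.0013). Both were ordered as Mefv was, highest in replicate 1 and lowest in replicate 3. Neither was called without replicate 1 (edgeR adjusted p = 0.67 and 1.00) or without replicate 3 (0.21 and 0.19). Unlike Mefv, both stayed called without replicate 2 (edgeR adjusted p = 0.012 and 0.044).

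Among 7 other inflammasome sensors 3 were detected in the gene tables. Aim2, the sensor of cytosolic DNA, was at 155, 129 and 110 TPM and thus above every sensor among the members except Nlrp1b in replicate 3. Nlrp12 was listed at 0 there, with a read-based mean of 1.24 TPM, and Nlrp1a lay between 1.52 and 2.16 TPM. Among 7 other NLR proteins 6 were detected, led by Nlrc5, the activator of MHC class I genes, at 470, 358 and 290 TPM. Nod1 and Nod2, sensors of peptidoglycan, averaged well below it, with 51.7 to 63.7 and 16.6 to 18.5 TPM. The read-based means were 347 TPM for Nlrc5, 140 for Nod1 and 17.7 for Nod2.

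All 18 partners and regulators were detected. Prkcd, a kinase that acts on Nlrc4, was highest at 392, 363 and 294 TPM. Pstpip1, which binds pyrin, was at 147, 149 and 120 TPM, so this pyrin partner exceeded Mefv itself in every library. Panx1 was lowest, between 1.46 and 2.21 TPM.

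Of 11 genes for other gasdermins and for membrane rupture, 2 were detected in the gene tables and 6 were listed at 0 in every library. Gsdme, the gasdermin cut by caspase-3, was at 5.48, 5.14 and 5.39 TPM. Ninj1, which breaks the plasma membrane late in lysis, was at 19.5, 20.4 and 17.8 TPM. The read-based tables differed for this list, with means of 50.5 TPM for Ninj1, 12.5 for Gsdma2, which the gene tables list at 0, and 2.45 for Gsdma. All 7 genes of the ESCRT machinery that repairs gasdermin pores were detected, led by Pdcd6ip at 84.8, 67.1 and 60.5 TPM.

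Of 5 genes for released substrates 4 were detected. Il18 was at 33.9, 22.4 and 17.8 TPM and Il1b at 6.95, 10.9 and 3.53 TPM, and neither passed the test (edgeR goodness of fit, adjusted p = 0.40 and 0.42). Il33 was listed at 0. All 13 other caspases and cell death genes were detected, with Cflar, the inhibitor of caspase-8, highest at 262, 192 and 164 TPM. Of 6 inhibitors 5 were detected, led by Birc3 at 134, 101 and 72.7 TPM, and Serpinb1a was the lowest at up to 0.35 TPM.

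**Figure D5:**
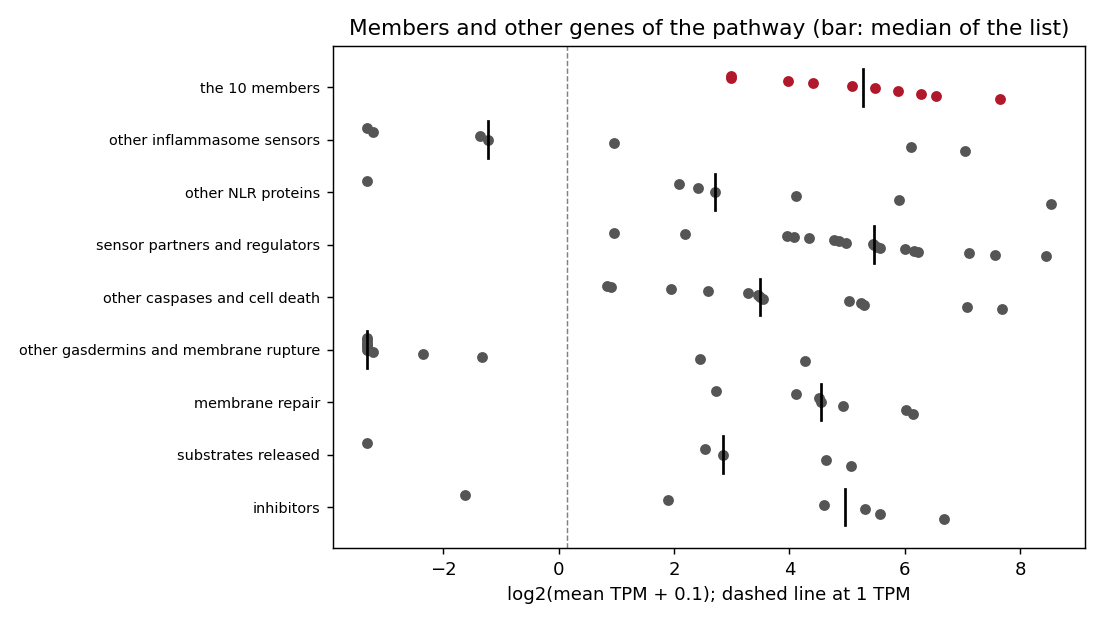
Mean level of each gene over 3 libraries as log2(mean TPM + 0.1), for the 10 members in red and 8 lists of the pathway in grey, with a bar at each median and a dashed line at 1 TPM. All 10 members and all 18 partners lie above the line, while 9 of the 11 other gasdermin and rupture genes lie below it in these gene tables.

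Promoters were searched on both strands for 5 motifs, in RefSeq windows from 250 bases before to 50 after the start (GRCm38.p6). Of the members, 9 have an entry and Gsdmd has none. The NF-kB consensus, the site of the factor that TLR4 activates, matched 3 members, Casp4, Nlrp3 and Naip5, and 4.505% of all 32851 promoters. Members are counted here by symbol, over all the starts of a gene, and the background by promoter, so the figures are not in the same unit. These 3 windows are shown on the strand of the gene, with the match in capitals.
Casp4, chr9:5308736-5308785, plus strand: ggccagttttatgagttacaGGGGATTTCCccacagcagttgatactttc
Nlrp3, chr11:59541363-59541412, plus strand: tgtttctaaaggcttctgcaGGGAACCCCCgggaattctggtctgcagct
Naip5, chr13:100247525-100247574, minus strand: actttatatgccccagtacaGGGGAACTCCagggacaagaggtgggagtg
The Casp4 match reads on both strands, shifted by 1 base, and the Nlrp3 match is on the opposite strand. GAGGAAGT, a PU.1 site, was found for Nlrp1b and Pycard and in 3.202% of promoters. TATAAA was found for Naip5 and in 13.62%. Both Naip5 matches belong to a RefSeq start upstream of the GENCODE gene described above, which begins at chr13:100246323 on the minus strand. GAAANNGAAA, an interferon response core, and TGANTCA, an AP-1 site, matched no member and 3.443% and 7.808% of promoters. A match is a run of letters, and no binding was measured here.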

How the data were processed

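Gene tables of expected counts and TPM, made on transcripts of mm10 with GENCODE M21, were deposited for each library, per the file headers. Transcript tables with the same units, and a second set of estimated counts and TPM (here read-based), were also deposited by the authors. Their columns are those RSEM and kallisto write. The use of strand, the aligner and the read length were not given in the sources used here. Reads from introns outside annotated transcripts have no entry, and TPM has a fixed sum, so abundant RNAs lower all other values. Members were found by symbol and joined by gene identifier. The members and lists were chosen with earlier results of these data known.

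Expected counts were rounded, filtered by filterByExpr and scaled by TMM in edgeR 4.0.16 (R 4.3.3). An intercept-only negative binomial model with trended dispersion was fitted to all genes, and deviances were tested against chi-square with Benjamini-Hochberg adjustment and a threshold of 0.05. The step was tested on simulated data. Entries outside genes were left out of totals. Levels were compared within libraries as log2(TPM + 0.1) by exact two-sided sign-flip tests. P-values measure only the spread between 3 libraries of 1 group. Alternatives used DESeq2 1.42.0, no filter, read-based tables, other thresholds and left-out replicates. Those for neighbouring members and for coding transcripts alone were added after seeing the data. The text names all members, the leading transcripts, and up to 4 highest genes, the lowest and every called gene of each list, others being chosen after their values were seen. Other steps ran in Python 3.11.15 with scipy 1.17.1, pandas 2.3.3 and numpy 2.4.6. Protein sequences were not used here. The value of 1 listed gene is not reported here.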

Additional observations from a re-analysis of the deposited data

How the results depend on the processing

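The call on Mefv was the least stable result. No member was called by DESeq2 dispersion outliers, without a filter on low counts (0 of 10 in both), or when any 1 library was left out (0 to 0). DESeq2 size factors, read-based counts and protein-coding genes alone kept the call on Mefv, with edgeR adjusted p of 0.0196, 0.0351 and 0.0039. Over all genes the 166 calls became 61 by DESeq2 outliers, 273 by read-based counts and 56 to 76 with 1 library left out. The common coefficient of biological variation was 0.167, and 0.111 without replicate 1. The median level of the members, 5.27, became 5.50 in the read-based tables and 7.04 with TPM rescaled over protein-coding genes. That of the detected protein-coding genes also rose in the read-based tables, from 3.60 to 4.13. Rescaling changes every gene of a library by the same factor. Retained-intron transcripts held 33.8% of the members' summed TPM, but 8.07% of their expected counts and 13.7% as a mean over single members. By TPM 4 members rather than 7 were highest in replicate 1, but 8 were by DESeq2 size factors and 9 by read-based counts. Without replicate 1 all 9 neighbouring pairs kept their order, 7 did without either of the others, and 6 did in the read-based tables. Of the values that answer a comparison, 27 stayed near their main value and 15 moved. No paired analysis was possible because the libraries form 1 group.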
